A study of Nasonia vitripennis with 39 samples.

Results

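The 200 loci described here are those whose transcript level varied least over every library of a survey of the parasitoid wasp Nasonia vitripennis, in which heads were sequenced apart from abdomens. They were chosen by the deposited values themselves. Among symbols that start with LOC, the numbered loci without a descriptive name, those with a mean of at least 20 TPM were ranked by the standard deviation (SD) over the mean across the 39 libraries, and the 200 lowest were kept. TPM is a transcript's share of its library, corrected for transcript length and scaled to the same total in every library. There were 5972 such loci, so the 200 are 3.35% of them, out of 14613 genes in the table. The locus LOC100121630 was left out by the rule.

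All animals belonged to the Whiting Polyploid Line (strain WPL), a laboratory line that is kept for its polyploid animals, and were 1 day past emergence. Female abdomens came from triploids (WPL_LSL_3N, 5 libraries) and diploids (WPL_LSL_2N, 4 libraries), and male abdomens from diploids (WPL_LSL_2N, 5 libraries) and haploids (WPL_LSL_1N, 5 libraries). Heads came from triploid females, diploid females, diploid males and haploid males, with 5 libraries each. The labels do not say whether a library held 1 animal or several, nor which head and abdomen shared an animal, so spreads between libraries may be partly technical.

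The species is haplodiploid: an unfertilised egg normally gives a haploid male, and a fertilised one a diploid female. Loci whose transcripts keep a steady share in unlike tissues are commonly called housekeeping genes, since they serve processes that every cell needs, such as protein secretion, energy supply and protein turnover. Messenger RNA sequencing measures shares, so a doubling of all transcripts with ploidy would leave every share as it was.

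Almost none of the 200 loci had a name. All 200 matched a symbol of the NCBI RefSeq gene table of assembly Nvit_psr_1.1, in which 199 are protein coding and 1, LOC103316806, is a long non-coding RNA. For 1 locus, LOC100121937, the table gives a synonym, GANAB. In mammals GANAB is the catalytic subunit of glucosidase II, which trims glucose from newly made glycoproteins in the endoplasmic reticulum. No role is given here for the other 199. In the gene order of that assembly 4 pairs of members are direct neighbours (LOC100115609 with LOC100115571, LOC100120755 with LOC100118018, LOC100121270 with LOC100121230, and LOC100124157 with LOC100124158).

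Genes with a descriptive symbol could not enter the set, but 9 of 371 at 20 TPM or more fell under the same limit of spread. They were named after their values were seen. They are the stress-activated kinase P38mapk (16.1% SD over mean), Myeov2, Cc2d1, the signal peptidase subunit Spase18-21, the SNARE proteins Syx17 and Sec22b of membrane fusion, the serine hydroxymethyltransferase Shmt1 of one-carbon metabolism, the respiratory complex I subunit Ndufb3 and the methionine salvage enzyme Apip (22.9%). Genes commonly used as references in insect PCR could be looked up where a symbol named them. The succinate dehydrogenase subunit Sdha had an SD over mean of 33.9% and the TATA-binding protein Tbp 81.04%. The ribosomal protein genes Rpl39, Rpl6, Rpl7a and Rpl41, which were not on the planned list of references, had 45.5%, 57.1%, 61.1% and 67.1%. All lay above the limit of 23.2% that the rule set for the 200, beside a median of 61.1% over the 5972 loci.

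Libraries held 16276300 to 132029645 estimated counts and were uneven in depth over the groups, with 19 above 30000000 and 20 below. The tissue markers fitted the labels: the opsin Lop1 averaged 4119 to 7463 TPM in the head groups and at most 2.40 TPM in the abdomen groups, and the germ plasm gene oskar averaged 760 TPM in triploid and 1236 TPM in diploid female abdomens, against 1.32 and 2.07 TPM in diploid and haploid male abdomens. In earlier results of these data the libraries B39A (triploid female abdomen), B6A (haploid male abdomen), B21 (diploid female head) and B5D (haploid male head) stood apart from their groups. Over the 200 loci, B6A gave the lowest TPM of all 39 libraries for 46 of them, and B5D gave the lowest for 27 and the highest for 32. B21 gave the highest for 22. B39A gave the lowest for 0 and the highest for 11, which did not set it apart by this count. Among the other libraries, the triploid female abdomen B38 gave the lowest for 26 and the diploid male head B12A for 24.

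The members' SD over mean ran from 10.5% to 23.2% with a median of 20.3%, against a median of 61.1% over the 5972 loci. At the limit, LOC100119114, LOC100123226 and LOC100114786 lay just inside at 23.1%, 23.2% and 23.2%. LOC100117577, LOC100116647 and LOC100121616 lay just outside at 23.2%, 23.2% and 23.3%, so the border falls in a continuous range. These values chose the members and are a description only.

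**Figure D1:**
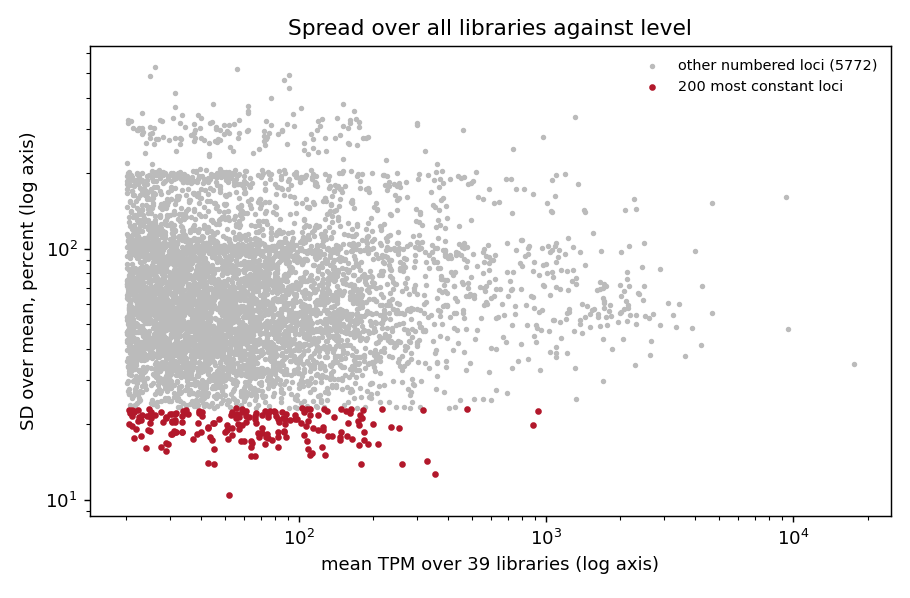
SD over mean across 39 libraries, in percent, against mean TPM, both on log axes, for the 200 most constant loci (red) and the 5772 other numbered loci at 20 TPM or more (grey). The 200 lie between 10.5% and 23.2% and mostly under 100 TPM, where 74.5% of all 5972 loci lie as well.

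Of the 200 members, 143 averaged under 100 TPM, beside 74.5% of all 5972 loci. The members' mean ran from 20.4 TPM (LOC100117094) to 929 TPM (LOC100115399), with a median of 63.2 TPM against 51.1 TPM over all 5972 loci. Only 2 members averaged 500 TPM or more, LOC100115399 and LOC100117234 (886 TPM), a share below the 4.12% of all 5972 loci. The third in level was LOC100123925 at 479 TPM, and the lowest beside LOC100117094 were LOC100121234 and LOC100124158 at 20.4 and 20.8 TPM. The ratio of counts to TPM, which follows transcript length, put the members at a median of 0.808 times the middle length of the 4500 loci with enough counts for this check, and 78 of 200 were longer than that middle.

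Counting error was small beside the spread. For a median member it came to 2.36% of the level and for the least counted to 5.25%, while libraries of the same group differed by 14.1% (median within-group SD over mean, range 7.999% to 21.1%). These counting errors cover the sampling of reads only. Libraries of a group were closest for diploid female heads (median SD over mean 7.24%) and furthest apart for triploid female abdomens (17.8%). Differences between the 8 groups made up a median of 55.1% of a member's sum of squares, against 87.3% over the 5972 loci. The rule drops loci with large differences between groups, so it favours a lower share, and nothing is read from this contrast.

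For the median member the highest of the 8 group means was 1.60 times the lowest, against 6.06 times over all 5972 loci. The range over members was 1.17 to 2.04 times, and 56 of 200 stayed under 1.5 times. Over single libraries the median ratio of highest to lowest was 2.41. All 18 numbered loci at 20 TPM or more in which no library reached 2 times another belong to the set. The rule ranked loci by their spread, so it favours all of these values, and nothing is read from them.

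LOC100115870 was the steadiest locus, at 52.2 TPM with an SD over mean of 10.5%. It had 50.2, 49.2, 44.3, 56.7 and 44.3 TPM in triploid female abdomens and 42.2, 58.4, 53.0 and 58.0 TPM in diploid female abdomens. Diploid male abdomens had 59.3, 47.3, 53.1, 59.0 and 59.3 TPM, and haploid male abdomens 57.8, 56.1, 59.6, 53.0 and 53.4 TPM. Triploid female heads had 51.7, 55.2, 48.5, 51.7 and 51.9 TPM, and diploid female heads 48.6, 55.03, 56.6, 50.3 and 54.7 TPM. Diploid male heads had 48.2, 41.8, 60.07, 51.9 and 55.9 TPM, and haploid male heads 43.5, 53.9, 52.9, 49.3 and 39.01 TPM. Each group overlapped each of the others, the lowest value lay in B5D and the highest in the diploid male head B13.

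LOC100114100, second in rank, ran at a higher level of 355 TPM (SD over mean 12.7%). Its group means were 294 ± 32.2 TPM in triploid and 347 ± 17.3 TPM in diploid female abdomens, and 399 ± 33.3 TPM in diploid and 395 ± 42.3 TPM in haploid male abdomens (SD, n = 5, 4, 5 and 5). In heads it averaged 357 ± 17.1 TPM in triploid females, 339 ± 7.97 TPM in diploid females, 369 ± 59.2 TPM in diploid males and 337 ± 33.7 TPM in haploid males (n = 5 each). The triploid female abdomens were the low group, and their highest library, B39A at 345 TPM, reached into the diploid range.

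The next 8 in rank were LOC100117959, LOC100123971, LOC100117145, LOC100117567, LOC100115576, LOC107981248, LOC100114994 and LOC100115951. Their means ran from 42.6 TPM (LOC100117567) to 329 TPM (LOC100115576), and their SD over mean from 13.9% to 15.04%. The group means of LOC100123971 differed by 1.21 times at most, between 189 ± 9.52 TPM in diploid female heads and 156 ± 17.7 TPM in triploid female abdomens. LOC100117281, at rank 13, was as flat over groups (1.18 times) but less even between libraries of a group, with 16.2% within-group SD over mean, and 13.3% of its sum of squares lay between groups.

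A low SD over mean did not mean that groups were alike. LOC100117908 had the smallest spread within groups of the 200 loci (7.999%) and the largest share between groups (87.7%). It had 95.07, 113, 133, 106 and 123 TPM in triploid female abdomens and 113, 114, 103 and 126 TPM in diploid female abdomens. Diploid male abdomens had 168, 166, 197, 192 and 173 TPM and haploid male abdomens 172, 179, 189, 182 and 182 TPM. The female abdomens lay wholly below the male ones, and within each sex the ploidies overlapped. In heads the means were 194 ± 15.3 TPM in triploid females, 197 ± 10.1 TPM in diploid females, 195 ± 14.97 TPM in diploid males and 198 ± 19.997 TPM in haploid males (SD, n = 5 each).

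The widest group ranges were those of LOC100678228 (2.04 times), LOC100117258 (2.02 times) and LOC100113651 (2.00 times). LOC100678228 averaged 15.9 ± 2.75 TPM in triploid female abdomens against 25.07 ± 2.33 TPM in diploid ones, and 32.6 ± 4.43 TPM in diploid female heads. LOC100117258 averaged 62.5 ± 9.91 TPM in triploid and 83.8 ± 9.09 TPM in diploid female abdomens, and 113 to 126 TPM in each of the 6 other groups. LOC100113651 ran the other way, with 110 ± 15.9 TPM in diploid female abdomens, against 220 ± 18.2 TPM in diploid male abdomens.

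Of the 200 loci, 76 had their lowest group mean in triploid female abdomens, where 9.98% of the 5972 loci had theirs. The rule drops loci with large differences between groups, so it shapes such counts, and nothing is read from this contrast. Diploid female abdomens were the highest group for 74 of the 200, close to the share of 36.1% over the 5972 loci. The annotated locus LOC100121937 (GANAB) was highest in diploid female abdomens and lowest in haploid male abdomens. It had 141, 155, 163, 274 and 163 TPM in triploid and 262, 266, 158 and 231 TPM in diploid female abdomens. The triploid value of 274 TPM is B39A, and the diploid value of 158 TPM is B28A, so the groups overlap. The means of the male abdomens and of the heads lay between 162 ± 38.7 TPM in haploid male abdomens and 227 ± 53.5 TPM in diploid male heads (n = 5 each).

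**Figure D2:**
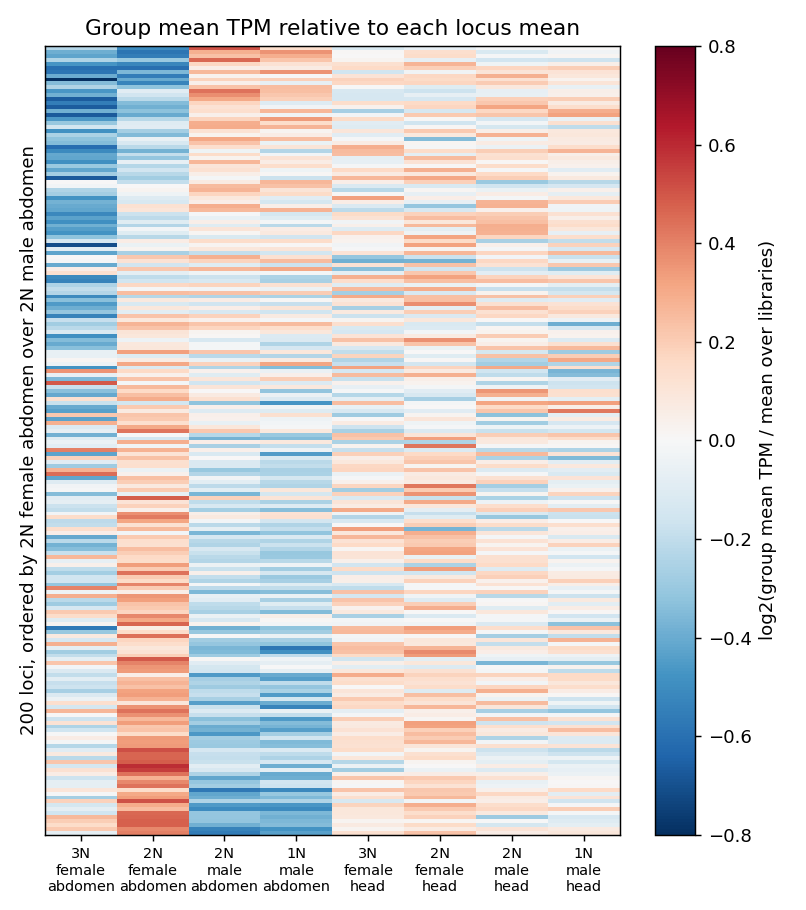
Group mean TPM of each of the 200 loci (rows) in the 8 groups (columns), as log2 of its ratio to the locus mean over all libraries, red above and blue below. Rows are ordered by diploid female over diploid male abdomen. Triploid female abdomens are the lowest group for 76 loci and diploid female abdomens the highest for 74. The rule shapes these counts, and nothing is read from them.

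How constant the 200 loci were between tissues depended on the scale. On the TPM scale, the median member differed by -0.13 log2 between diploid male abdomens and heads (75 higher, 125 lower in the abdomen) and by 0.03 log2 between diploid female abdomens and heads (106 higher, 94 lower). With counts scaled by TMM, which sets the scale so that most genes do not differ between libraries, the medians over the same loci were 0.52 and 0.49 log2, and 198 and 178 of the 200 lay higher in the abdomen. The median of all tested genes moved with the scale as well: it was 0.00 log2 in males and -0.25 log2 in females in the edgeR fit of TMM-scaled counts, but -0.64 and -0.55 log2 in TPM. Relative to it, the median member stood 0.53 log2 higher in males in the edgeR fit and 0.51 log2 higher in TPM, and in females 0.74 and 0.59 log2 higher. The rule picked loci with little TPM spread over these same libraries, so it favours such a gap, and nothing is read from it.

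Calls followed the scale. A gene was called where the adjusted p of edgeR's quasi-likelihood test was under 0.05. Because the rule used every library of each comparison, the calls among the 200 are given as a description and nothing is read from them. For diploid male abdomens against heads 169 of the 200 were called, all of them higher, beside 65.3% of all tested genes (32.5% higher, 32.8% lower). For diploid female abdomens against heads 141 were called, 137 higher and 4 lower, beside 80.3% (37.7% higher, 42.6% lower). The split of the calls over all genes moved with the scale too. In males, limma on log2(TPM + 1) called 72 members (21 higher, 51 lower), beside 2266 genes higher and 5902 lower of 10826 tested. Library totals alone called 84 members (75 higher, 9 lower), beside 3066 higher and 5234 lower of 12402. In females, limma called 85 members (43 higher, 42 lower), beside 3758 genes higher and 4915 lower of 10826, and library totals 127 members (118 higher, 9 lower), beside 4482 higher and 5448 lower of 12402. Size factors of the DESeq2 kind in edgeR called 81 members higher and 21 lower in females, beside 4233 and 5749 of 12402 genes, and DESeq2 itself 84 and 21, beside 4244 and 5925 of 13701.

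**Figure D3:**
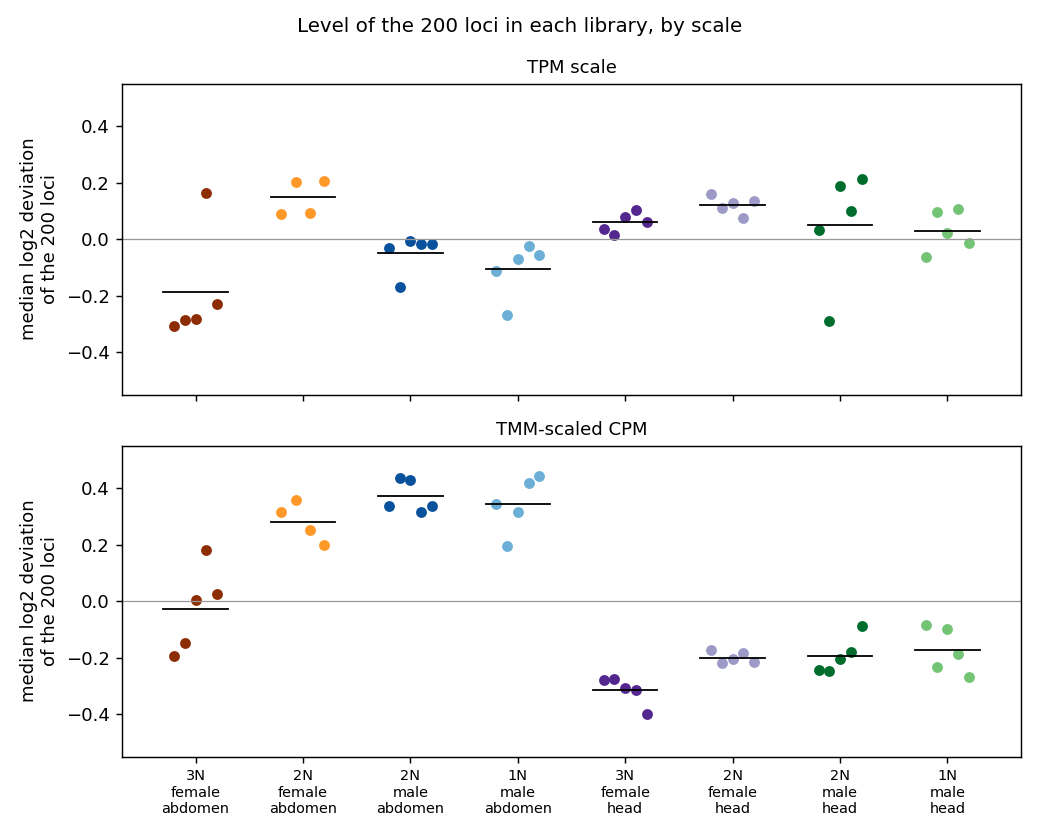
Median over the 200 loci of the log2 deviation from each locus mean, for every library (points) by group, with the group mean as a line. The top panel is on the TPM scale. The bottom panel is on TMM-scaled CPM, each gene's share of the library's counts divided by that library's TMM factor. In TPM the libraries lie between -0.31 and 0.21, and abdomens overlap with heads. On the TMM scale the male and diploid female abdomens all lie above the heads.

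Sex differences at equal ploidy were nearer to 0 in heads than in abdomens in TPM. Diploid female minus diploid male heads gave a median of 0.08 log2 in TPM, with 126 of 200 within 0.2 log2 of no difference. That median was -0.00 log2 without the male head B12A and -0.00 log2 on the TMM scale. Abdomens gave 0.22 log2 in TPM, with 57 within 0.2, but -0.07 log2 on the TMM scale. In heads 27 members were called (5 higher, 22 lower in females), beside 27.9% of all tested genes (12% higher, 15.9% lower). In abdomens 93 were called (16 higher, 77 lower), beside 83.5% (37.2% higher, 46.3% lower). Both splits had the other direction with library totals and with limma on TPM. In heads, library totals alone called 24 members higher and 8 lower, beside 1983 and 1329 of 10846 genes, and limma on log2(TPM + 1) 21 and 9, beside 1609 and 1227 of 10087. In abdomens, library totals called 88 members higher and 25 lower, beside 5080 and 4920 of 11884 genes, and limma 74 and 27, beside 4958 and 3996 of 10282. Size factors of the DESeq2 kind called 4 members higher and 99 lower in abdomens, beside 4159 and 5722 of 11884 genes, and DESeq2 6 and 103, beside 4204 and 5845 of 13645. The median of all tested genes between the abdomens was -0.46 log2 in the edgeR fit and -0.02 log2 in TPM.

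The median ploidy differences of the 200 loci lay near 0 in heads and in male abdomens. The median difference in TPM was 0.03 log2 for diploid minus haploid male heads, -0.08 log2 for triploid minus diploid female heads and 0.04 log2 for diploid minus haploid male abdomens. Of the 200, 178, 165 and 181 lay within 0.2 log2 of no difference. Since the rule picked loci with little spread over these same libraries, it favours such counts, and nothing is read from them. None was called in these comparisons by edgeR, beside 0.0738%, 0.313% and 0.0421% of all tested genes. At an unadjusted p under 0.05 there were 6, 25 and 4 members, beside 1159 and 1988 of 10846 tested genes in male and female heads and 645 of 11884 in male abdomens. DESeq2 called 1, 5 and 0 members, beside 77 of 12283, 559 of 11498 and 71 of 13645 genes. The count of 0 in female heads changed with the model. With a term for deep libraries edgeR called 8 members there, beside 623 of 10846 genes, and with library totals 1, beside 72. Since 3 of 5 triploid and 0 of 5 diploid female heads had over 30000000 counts, depth and ploidy were partly confounded there. They were so in male heads too, where 4 of 5 diploid and 1 of 5 haploid libraries were that deep. With the depth term edgeR called 0 members in male heads, beside 0 of 10846 genes. At an unadjusted p under 0.05 that fit had 23 members, beside 1342 genes. The part of depth was not tested. These small medians in males changed sign or came close to it: leaving out 1 library moved them between -0.00 and 0.11 log2 in heads and between 0.00 and 0.08 log2 in abdomens, and on the TMM scale they were -0.02 and 0.01 log2. The diploid male head B12A, whose summed level of the 200 loci was 15026 TPM against 18305 to 20109 TPM in the other diploid male heads, also had 2190 TPM of the muscle markers Tm1, Tm2 and Zasp66, against 701 to 847 TPM in those heads. Tm2 alone went the other way, at 32.2 TPM in B12A against 43.9 to 60.8 TPM in those heads. Without B12A the median difference in male heads was 0.11 log2; the part of the marker level in it was not tested.

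In male heads no member had TPM values in diploids that were separate from those in haploids, beside 0.996% of all tested genes. The highest differences were those of LOC100679977 (129 ± 19.2 TPM in diploids and 102 ± 25.8 TPM in haploids, 0.38 log2), LOC100120015 (0.32 log2) and LOC100122100 (0.32 log2). The lowest were those of LOC100122173, LOC100120475 (-0.24 log2) and LOC100679148 (-0.23 log2). LOC100122173 averaged 24.5 ± 3.43 TPM in diploid and 35.7 ± 9.45 TPM in haploid heads (SD, n = 5 each; -0.52 log2 in TPM, -0.60 ± 0.14 SE in the edgeR fit), with overlap between the groups. This locus was not called. Here and below, the SE was derived from the test, as the size of the difference over the square root of its F statistic.

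In female heads 145 of the 200 lay lower in triploids and 55 higher, and 11 had separate TPM values (8 lower, 3 higher) beside 12.4% of all tested genes. With TMM scaling 31 were separate, but the share over all genes was not computed on that scale, so nothing is read from this count. The median difference was -0.13 log2 with TMM scaling and -0.17 log2 with library totals. The head markers Lop1 and Pdf summed to 5234 to 6926 TPM in triploid heads, against 7369 to 9258 TPM in diploid heads, without overlap. Pdf alone overlapped, at 770 to 1070 TPM in triploid and 817 to 1456 TPM in diploid heads. The muscle markers Tm1, Tm2 and Zasp66 summed to 419 to 703 TPM in triploid and 290 to 499 TPM in diploid heads, and the part of these markers in the result was not tested. LOC100678680 was the lowest: triploid heads had 51.1, 59.4, 48.9, 60.02 and 64.4 TPM, against 75.1, 86.5, 83.4, 74.9 and 77.2 TPM in diploid heads (-0.49 log2). Every triploid head lay under every diploid one. LOC100120133 (-0.40 log2) and LOC100678228 (-0.35 log2) followed, with overlap. The highest was LOC100120475, at 26.4 ± 1.39 TPM in triploid and 16.2 ± 1.74 TPM in diploid heads (n = 5 each; 0.71 log2, 0.65 ± 0.17 SE in the edgeR fit), again without overlap. LOC100678647 (0.36 log2, separate) and LOC100115399 (0.33 log2, overlapping) came next. The diploid female head B21 held 161 TPM of oskar and nanos together, against 12.97 to 26.4 TPM in the other diploid female heads. In male heads LOC100120475 averaged 18.1 ± 4.67 TPM in diploids and 21.6 ± 6.02 TPM in haploids.

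In male abdomens 3 members had separate values, beside 1.35% of all tested genes, and all 3 lay higher in diploids: LOC100113651, LOC100123040 (0.32 log2) and LOC100123726 (0.22 log2). LOC100113651 averaged 220 ± 18.2 TPM in diploid and 171 ± 20.7 TPM in haploid abdomens (n = 5 each; 0.37 log2). LOC100118048 (0.37 log2) and LOC100123525 (0.34 log2) were as high but overlapped. The lowest were LOC100115222 (30.3 ± 3.34 TPM in diploids and 35.5 ± 5.90 TPM in haploids, -0.22 log2), LOC100118419 (-0.18 log2) and LOC100122070 (-0.17 log2).

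The ploidy difference was larger in female abdomens. There 175 of the 200 lay lower in triploids, beside 63.6% of the 5972 loci. The rule used these TPM values, so this count is a description. The median of the 200 was -0.32 log2 in TPM and -0.16 log2 with library totals. The TPM median stood against -0.26 log2 over the 5972 loci and -0.08 log2 over all tested genes (0.10 log2 in the edgeR fit, where the median member was at -0.13). Of the 200, 54 lay within 0.2 log2 of no difference, and 38 lay beyond 0.5 log2. Separate values were found in 32 (30 lower, 2 higher), beside 22.9% of all tested genes. By edgeR 33 were called, 8 higher and 25 lower, beside 38.7% (28.7% higher, 10.0% lower). Size factors of the DESeq2 kind called 5 members higher and 37 lower, beside 3273 and 1528 of 11884 genes. DESeq2 called 6 and 48, beside 3573 and 1796 of 11907, and limma on log2(TPM + 1) 1 and 81, beside 2229 and 2948 of 10282. Leaving out 1 library gave 14 calls without B27 (beside 3492 of 12115 genes), 17 without B28A (3706 of 12243) and 19 without B30 (3677 of 12239). There were 20 without B36A (3665 of 11933), 21 without B38 (3831 of 11822) and 22 without B37A (3901 of 11948). Counts were 24 without B40A (4208 of 11950), 27 without B26A (3945 of 12234) and 41 without B39A (5411 of 11974).

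LOC100115745 was the lowest, at 175 ± 30.1 TPM in triploid and 296 ± 22.4 TPM in diploid female abdomens (SD, n = 5 and 4; -0.77 log2 in TPM, -0.60 ± 0.13 SE in the edgeR fit). LOC100122169 (-0.76 log2), LOC100118174 (-0.74 log2) and LOC100119024 (-0.72 log2) followed, and all 4 were called lower. In the other direction LOC100116447 averaged 35.2 ± 5.24 TPM in triploids and 24.8 ± 0.932 TPM in diploids (0.49 log2) and LOC100116126 34.3 ± 7.40 TPM in triploids and 25.8 ± 1.63 TPM in diploids (0.39 log2). Both were separate and called higher. LOC100113653 (0.34 log2) was not called, and LOC100113651 (0.26 log2) was called with overlapping values.

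**Figure D4:**
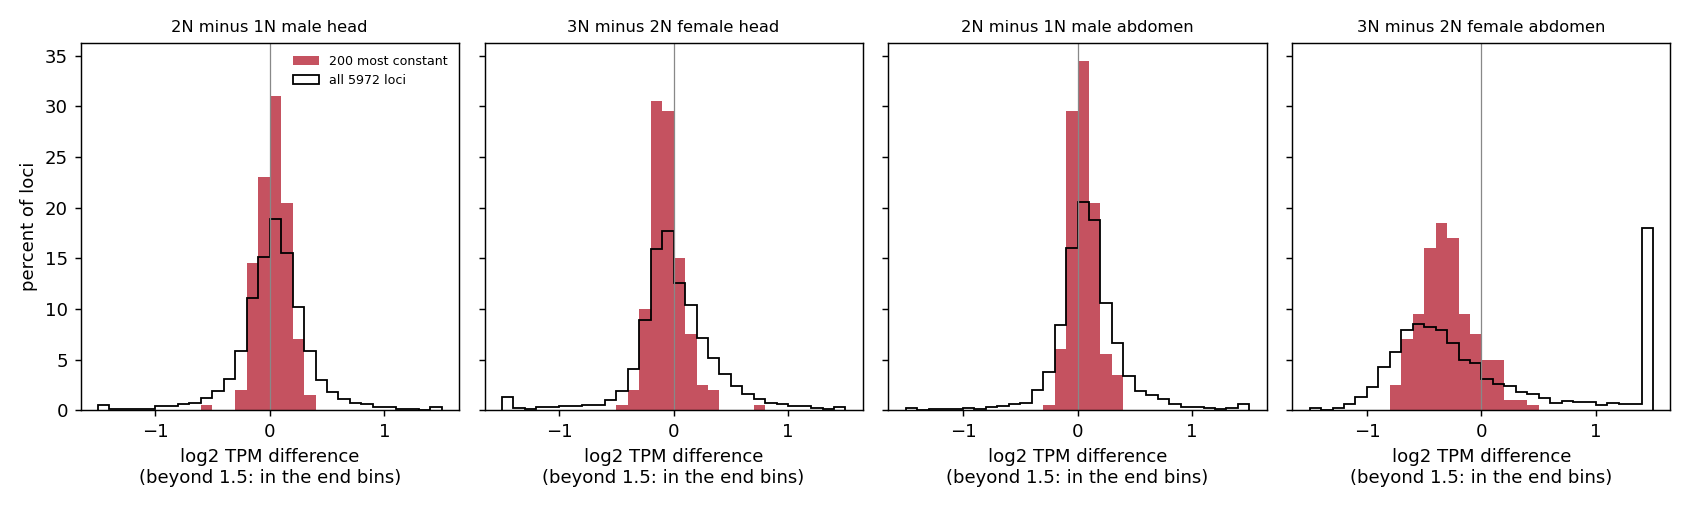
Distribution of the log2 difference in TPM between higher and lower ploidy in the 4 comparisons, as percent of loci, for the 200 most constant loci (red) and all 5972 numbered loci at 20 TPM or more (black line); values beyond 1.5 are counted in the end bins. The 200 centre near 0 in heads and male abdomens and at -0.32 in female abdomens.

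The shift in female abdomens was carried by 4 of the 5 triploid libraries. Against the diploid mean the median member lay at -0.43 log2 in B36A, -0.45 in B37A, -0.42 in B38 and -0.37 in B40A, but at 0.03 log2 in B39A. The 200 loci together took 15061, 15103, 14732, 19430 and 15559 TPM in the triploid libraries (B36A, B37A, B38, B39A and B40A), against 18838, 19761, 18394 and 19435 TPM in the diploid ones. B39A lay within the diploid range and the other triploid libraries under it. Without B39A the median was -0.42 log2, and 114 members were separate (112 lower, 2 higher), beside 59.6% of all tested genes. The germ plasm genes oskar and nanos, the ovary markers used here, moved with this split. Their summed level was 605, 897, 854 and 1033 TPM in B36A, B37A, B38 and B40A and 1826 TPM in B39A, against 1531 to 1877 TPM in the diploid abdomens. The muscle markers Tm1, Tm2 and Zasp66 summed to 984 to 1635 TPM in those 4 triploid libraries and 496 TPM in B39A, against 373 to 401 TPM in diploids. Within that sum Tm2 went the other way, at 64.1 to 68.3 TPM in those 4 libraries, 118 TPM in B39A and 113 to 136 TPM in diploids. Their part in the result was not tested, and in bulk tissue fewer cells of a type and less RNA per cell cannot be told apart.

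Members that kept 1 direction with ploidy were counted as a description, since the rule used these TPM values. The 4 comparisons use separate libraries. In TPM, 24 of the 200 lay lower at the higher ploidy in all 4 comparisons and 4 lay higher in all 4, or 12% and 2% of the 200, beside 7.89% and 10.3% of the 5972 loci. On the TMM scale there were 41 and 3, or 20.5% and 1.5% of the 200, beside 11.5% and 8.37% of the 5972 loci. The mean of the 4 differences among the 24 ran from -0.27 to -0.02 log2. The 4 were LOC100114334, LOC100114190, LOC100117091 and LOC100121753. Of the 200, 35 lay within 0.2 log2 of no difference in all 4 comparisons, a count that the rule favours.

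LOC100678680 had the lowest mean of the 24 (-0.27 log2), with -0.20 and -0.17 log2 in heads and abdomens of males and -0.49 and -0.21 log2 in those of females. Outside female heads its groups overlapped. Male heads averaged 60.7 ± 7.49 TPM in diploids and 70.7 ± 15.1 TPM in haploids, male abdomens 65.09 ± 10.3 TPM in diploids and 73.4 ± 13.8 TPM in haploids, and female abdomens 68.1 ± 6.37 TPM in triploids and 79.6 ± 15.4 TPM in diploids. LOC100117908 was at the other end of the 24, with differences of -0.02, -0.03, -0.01 and -0.00 log2 (male heads, female heads, then abdomens of males and of females).

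LOC100121753 was the highest of the 4 (mean 0.14 log2). Diploid male heads had 253, 164, 276, 247 and 246 TPM, against 191, 207, 204, 209 and 160 TPM in haploid male heads. All diploid heads except B12A at 164 TPM lay above the haploid ones. In female abdomens the triploid values of 154, 202, 329, 404 and 215 TPM spanned the diploid values of 260, 286, 187 and 239 TPM. The difference there was 0.03 log2, far less than the spread between libraries.

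**Figure D5:**
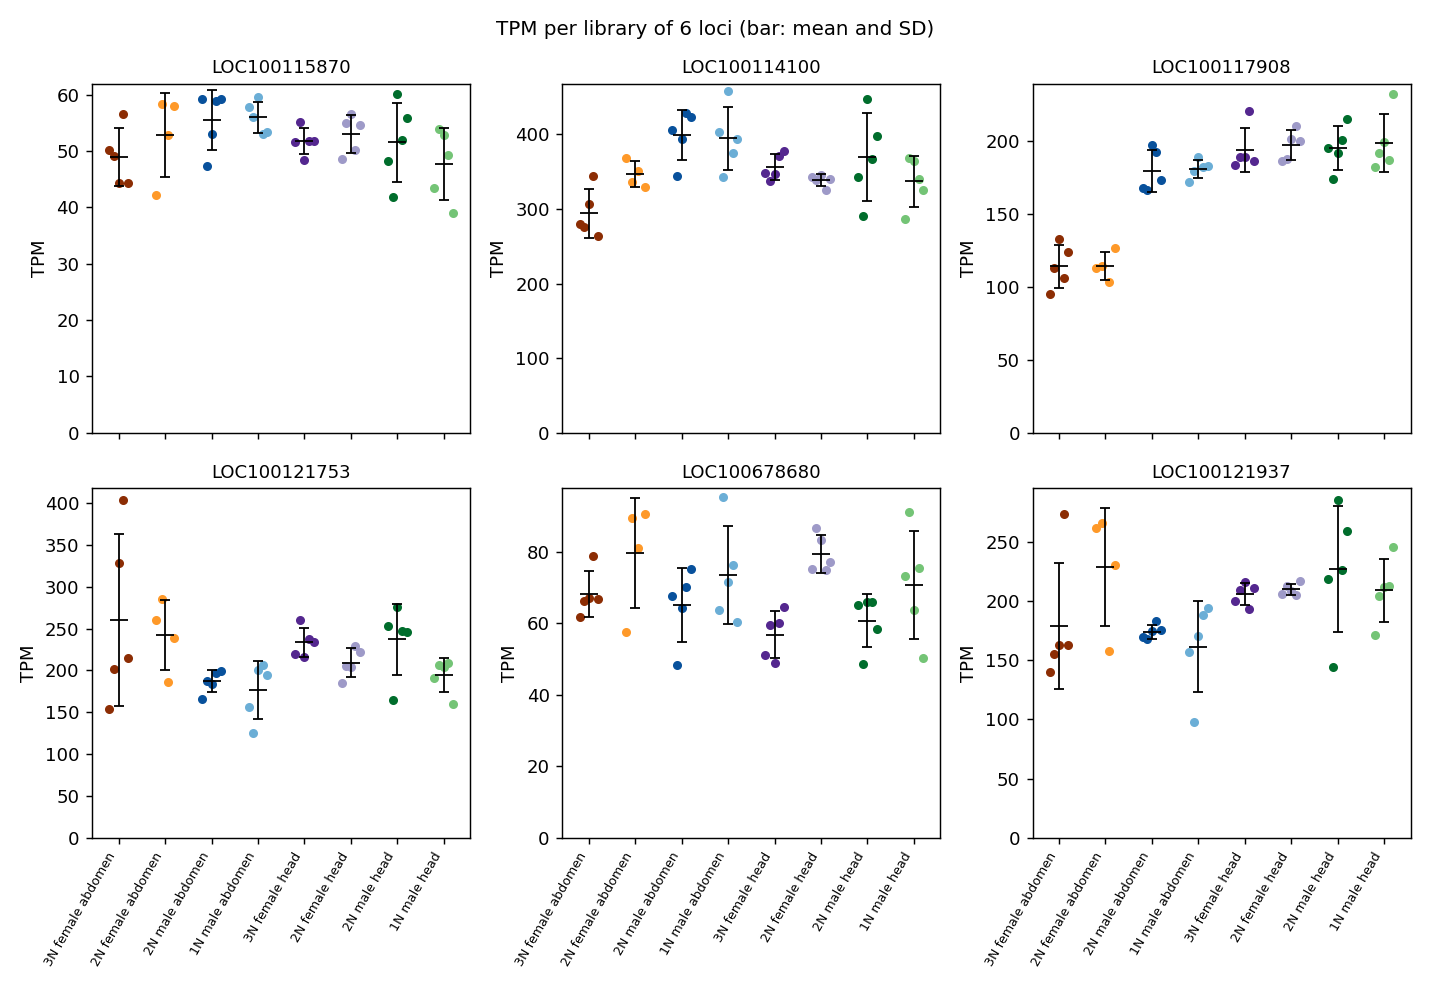
TPM of 6 loci in every library (points) by group, with mean and SD in black; axes start at 0. LOC100115870 and LOC100114100 are the steadiest of the 200; LOC100117908 is lower in female abdomens at both ploidies; LOC100121753 and LOC100678680 keep a small ploidy difference of 1 direction in TPM; LOC100121937 is the locus with the synonym GANAB.

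Membership itself rested on the scale. When the same rule was applied to TMM-scaled CPM, which is not corrected for length, 42 of the 200 were again among the 200 lowest, and with library totals 95. There were 40 members on all 3 scales. On the TMM scale the members' median SD over mean was 26.6%, and the limit of the 200 lowest lay at 19.8%. The best placed of the 42 by TPM were LOC100115951 (rank 10), LOC100121020 (rank 12), LOC100114184 (rank 14), LOC100123754 (rank 16) and LOC100120417 (rank 17). On the TMM scale LOC100121260 and LOC100115222 had ranks 5 and 6, against ranks 120 and 98 in TPM. The 9 steadiest members in TPM, LOC100115870 included, were not among these 42.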

How the data were processed

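The authors deposited estimated counts per gene, not normalized, for 14621 genes (16.8% of values not whole), and TPM values for 14613 genes. STAR 2.7.11a and RSEM 1.3.1 are named, without a role, per the submitters' processing notes; the sources used here give no build, annotation or strand setting, so no coordinates are printed and overlapping genes were not told apart. An estimated count divides reads shared by similar genes.

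The RNA was poly(A)-selected, per the labels' protocols. Members were ranked on the deposited TPM. Differences between groups are of mean log2(TPM + 0.1). Counts were rounded and fitted over all genes by edgeR 4.0.16 in R 4.3.3 (quasi-likelihood test, TMM, filterByExpr, Benjamini-Hochberg), heads together (10846 genes), abdomens together (11884) and all libraries for tissue (12402). TMM-scaled levels use factors over all libraries. The fit was tested on simulated counts. The members, lists and libraries called apart were chosen with earlier results of these data known. Genes named are the 10 steadiest, those at the limit, at both ends of level and of group range, the 3 highest and lowest in each ploidy comparison, up to 3 called each way and those with a synonym; others were chosen after their values were seen. The planned function lists by name held no member, for lack of names. Depth was 16276300 to 132029645 counts per library. Alternatives (sensitivity to scale, filter, test and libraries) used DESeq2 1.42.0 and limma 3.58.1.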

Additional observations from a re-analysis of the deposited data

Results flagged for a closer look

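Values printed library by library or as sums were screened within each group for a single library far from the rest, over 56 sets of 4 or 5 libraries; chance alone marks about 1 in 20 such sets. There were 5. The summed level of the 200 loci was 19430 TPM in the triploid female abdomen B39A, above the other libraries of its group, and 16660 TPM in the diploid male abdomen B17, below them. LOC100121937 stood at 274 TPM in B39A, LOC100117908 at 221 TPM in the triploid female head B34A and LOC100121753 at 164 TPM in the diploid male head B12A.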

How the results depend on the processing

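No paired analysis was possible because the labels tie no library of one group to a library of another. Of the 200 loci, 42 were kept by the rule on TMM-scaled CPM, 95 with library totals, 98 by median absolute deviation over median, 126 at a mean of at least 50 TPM and 119 in shallow libraries alone; leaving out 1 library kept 174 to 197.

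Calls among the 200 changed as follows. Male heads had 1 with DESeq2 (beside 77 of 12283 genes) and 0 to 1 when 1 library was left out (1 without B3, beside 63 of 10934). Female heads had 1 with library totals (beside 72 of 10846 genes) and 8 with a term for deep libraries (623 of 10846). They had 1 without B5D, B21, B6A and B39A (39 of 10972) and 5 with DESeq2 (559 of 11498). Female abdomens by ploidy had 69 without those 4 libraries (beside 6470 of 12024 genes), 54 with DESeq2 (5369 of 11907) and 82 with limma (5177 of 10282). They had 14 to 41 when 1 library was left out (3492 of 12115 genes without B27 to 5411 of 11974 without B39A). Abdomen against head gave 84 with library totals (beside 8300 of 12402 genes) and 72 with limma (8168 of 10826) in males. In females limma gave 85 (8673 of 10826).

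The median log2 difference on the TMM scale was -0.13 in female heads by ploidy, -0.068 between the sexes in abdomens, and 0.52 in males and 0.49 in females for abdomen against head. With library totals it was -0.17 in female heads, -0.16 in female abdomens by ploidy, and 0.19 and 0.38 for abdomen against head. For the loci that the rule chose on TMM-scaled values it was -0.032 in female heads, 0.43 between the sexes in abdomens, and -0.64 and -0.36 for abdomen against head.

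Alternatives chosen after seeing the data gave these values. On the TMM scale 41 loci lay lower in all 4 ploidy comparisons, or 20.5% of the 200 beside 11.5% of the 5972 loci. Separate values were found on that scale for 1 locus in male heads, 31 in female heads and 1 in male abdomens. The share over all genes was not computed for these 3 counts, and nothing is read from them. Without B5D, B21, B6A and B39A, 1 locus lay higher in all 4 and 114 were separate in female abdomens, beside 59.6% of all tested genes. The causes were not tested.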
